A study of Mus musculus with 6 samples.

Results

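This account covers 9 noncoding RNA genes in mouse embryonic stem cells of the line E14Tg2a, read on Affymetrix arrays. They are 7 host genes of small nucleolar RNAs (snoRNAs), namely Gas5, Snhg1, Snhg3, Snhg5, Snhg6, Snhg8 and Snhg12, and 2 abundant long noncoding RNAs of the nucleus, Malat1 and Neat1. The members are all probe sets annotated to 1 symbol only, where that symbol is one of these genes. These are 9 of 18193 genes with such a probe set, and the rule gave 25 of 45101 probe sets, 16 for the hosts and 9 for Malat1 and Neat1. Gas5 had 4 probe sets, Snhg1 had 5, Snhg5 had 3, Malat1 had 7 and Neat1 had 2, and the other genes had 1 each. Another 2 probe sets are annotated to a member together with the snoRNA inside it, so their signal cannot be given to 1 gene and they are described apart.

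The cells had been transfected with a control siRNA duplex that targets firefly luciferase, with Ncl siRNA #1 or with Ncl siRNA #2, and RNA was taken at 96 h. Both Ncl siRNAs target the mRNA of nucleolin, an abundant nucleolar protein. Each group held 2 arrays of the same cell line, and nothing in the sources says whether they came from separate cultures. The p-values therefore reflect the spread among these arrays, which may be technical. Values are log2 probe set values, changes are log2 differences with the standard error (SE) that limma gave, and p-values were adjusted over 45037 probe sets. A probe set was called changed at an adjusted p under 0.05. Values of different probe sets cannot be set against each other as amounts of RNA.

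A snoRNA host gene is transcribed and spliced, and its snoRNAs are cut out of the introns. The snoRNAs then guide chemical modification and processing of ribosomal RNA in the nucleolus, while the spliced exons remain as a long noncoding RNA. Many host transcripts begin with a tract of C and T letters (the 5′ terminal oligopyrimidine tract, also found in ribosomal protein mRNAs), and several, Gas5 among them, are short-lived because they are translated and then degraded by nonsense-mediated decay. Malat1 gathers in nuclear speckles, the storage sites of splicing factors. Neat1 is the scaffold on which paraspeckles form, and its gene is a known target of p53. These arrays read the host transcripts, and the snoRNAs themselves were not measured here.

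In the RefSeq annotation the spans of Gas5 and Snhg1 each hold 8 snoRNA genes, among them Snord47 in Gas5 and Snord22 in Snhg1. Snhg12 holds 4 (Snora16a, Snora44, Snora61 and Snord99), Snhg3 holds 2 (Snora73a and Snora73b) and Snhg5 holds 2 without a snoRNA name. Snhg6 holds 1, Snord87, and Snhg8 holds 1, Snora24. Ncl is itself such a host, with Snora75 and Snord82 inside its gene, whereas Malat1 and Neat1 hold 0.

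The start regions of the host genes are printed because most of these genes moved together in the arrays. Each line gives 100 bases from RefSeq (GRCm38.p6) on the gene's strand, 50 of them before the annotated start. Where 4 capitals read TATA, they mark that motif between 40 and 16 bases before the start, and the last run of capitals marks the longest run of C and T within 30 bases either side of the start. Of the members 7 were in the promoter table, with 2 starts for Gas5.
Gas5 (upstream start, chr1:161034551-161034650, plus strand): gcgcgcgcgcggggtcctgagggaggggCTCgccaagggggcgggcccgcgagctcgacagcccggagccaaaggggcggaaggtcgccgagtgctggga
Gas5 (downstream start, chr1:161035116-161035215, plus strand): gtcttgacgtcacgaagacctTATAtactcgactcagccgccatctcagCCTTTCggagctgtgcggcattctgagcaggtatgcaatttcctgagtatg
Snhg1 (chr19:8723437-8723536, plus strand): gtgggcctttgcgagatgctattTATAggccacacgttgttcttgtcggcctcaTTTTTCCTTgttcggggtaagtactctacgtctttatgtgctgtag
Snhg3 (chr4:132353637-132353736, minus strand): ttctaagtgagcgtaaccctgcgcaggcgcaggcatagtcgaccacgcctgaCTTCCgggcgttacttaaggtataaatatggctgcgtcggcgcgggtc
Snhg5 (chr9:88522848-88522947, minus strand): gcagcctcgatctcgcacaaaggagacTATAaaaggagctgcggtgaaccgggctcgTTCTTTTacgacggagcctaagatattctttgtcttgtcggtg
Snhg8 (chr3:123508287-123508386, minus strand): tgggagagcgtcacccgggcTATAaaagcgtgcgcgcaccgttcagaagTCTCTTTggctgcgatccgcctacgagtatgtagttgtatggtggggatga
Snhg12 (chr4:132308628-132308727, plus strand): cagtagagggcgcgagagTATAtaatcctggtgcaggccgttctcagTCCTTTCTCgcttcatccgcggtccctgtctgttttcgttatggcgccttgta
Malat1 (chr19:5802623-5802722, minus strand): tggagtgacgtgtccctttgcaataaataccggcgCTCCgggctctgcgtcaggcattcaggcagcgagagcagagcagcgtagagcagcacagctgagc

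The motif TATA, which reads the same on both strands, stood in this window in 5 of the 6 host genes in the table, against 5.91% of all 32851 RefSeq starts. The exception is Snhg3, and Malat1 did not hold it there. The letters CTTT, within 30 bases either side of the start and on the gene's strand, were found in 4 of the 6 host genes (Gas5, Snhg5, Snhg8 and Snhg12), against 22.6% of all starts. On the other strand they were found in 3 of the 6 (Gas5 at its upstream start, Snhg5 and Snhg8), against 23.8% of all starts. These counts are per gene and the shares per start, and Gas5 counted where either of its 2 starts matched. Its TATA and its CTTT on the gene's strand lie at the downstream start. The longest run of C and T was 9 bases in Snhg1 and Snhg12, a length reached by 15.6% of all starts, 7 bases in Snhg5 and Snhg8, reached by 33.8%, and 6 bases at the downstream start of Gas5, reached by 49.6%. It was 5 bases in Snhg3, reached by 70.9%, and 3 bases at the upstream start of Gas5, reached by 97.8%. CTTT lies inside the marked run in Gas5, Snhg5, Snhg8 and Snhg12. These matches describe letters near annotated starts and show no factor bound there.

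The control arrays stand apart from all 4 Ncl siRNA arrays in transcripts that are not of stem cells, and this bears on every comparison with control. Scgb1a1, a secretory protein of airway club cells, read 12.96 and 12.96 on the control arrays and 3.29 to 4.01 in the Ncl siRNA arrays. Of 8 measured airway secretory markers 7 were lower with each Ncl siRNA, and their summed level (log2) was 13.20 to 13.22 on the control arrays and 7.73 to 8.05 in the others. Of 10 alveolar markers 8 were lower, of 11 lung mesenchyme and endothelium markers 7, and of 8 heart muscle markers 8, with each siRNA. The summed levels of the alveolar markers were 12.25 to 12.38 and 10.34 to 10.56, those of the heart muscle markers 9.43 to 9.73 and 8.26 to 8.44, and those of the mesenchyme and endothelium markers 9.88 to 10.13 and 9.22 to 9.38. A summed level follows its brightest genes. For leukocyte markers the summed levels overlapped (11.42 to 11.53 and 11.38 to 11.48), but the mean values did not (6.47 to 6.48 and 5.93 to 6.07). Of 10 leukocyte markers 2 were lower and 2 higher with siRNA #1, and 3 lower and 1 higher with siRNA #2. Fibroblast markers summed to 11.18 to 11.19 and 11.96 to 12.16, though 4 of 10 were lower and 2 higher with each siRNA (medians -0.01 and 0.03). Over all genes 15.4% were lower and 18.9% higher with siRNA #1, and 20.0% and 16.7% with siRNA #2. Trophectoderm markers summed to 10.55 to 10.66 and 13.04 to 13.88, and embryonic stem cell markers to 16.47 and 16.03 to 16.24. The added poly-A control RNAs averaged 7.66 with control siRNA, 8.71 with siRNA #1 and 8.42 with siRNA #2. The 3 probe sets for 18S ribosomal RNA averaged 12.02 to 12.19 on the control arrays and 12.96 to 13.20 on the Ncl siRNA arrays. The part of these differences in the results against control was not tested. In these bulk samples a change in cell makeup and a change in RNA per cell cannot be told apart. The difference of siRNA #2 minus siRNA #1 is between Ncl siRNA arrays, though the control arrays enter the estimate of its spread. Over all genes 3.11% were lower and 1.45% higher in this difference, so a count of 0 in a short list says little. Of the 18 airway and alveolar markers 0 differed, and of 8 heart muscle markers 1 was lower with siRNA #2. With the probe sets of each gene averaged, 1 alveolar marker was lower and 1 mesenchyme or endothelium marker higher. Of 12 embryonic stem cell markers 8 were lower and of 8 trophectoderm markers 4 higher with siRNA #2. The part of those in that comparison was not tested either.

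Ncl, the targeted gene, was lower with both siRNAs on all 5 of its probe sets. The brightest stood at 72.9% (siRNA #1) and 72.5% (siRNA #2) of control, and the lowest share was 37.2% and 33.6%, on another probe set.

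The snoRNA host genes fell with both Ncl siRNAs. On the brightest probe set of each gene, 6 of 7 hosts were lower with siRNA #1 and 7 of 7 with siRNA #2, and none was higher. Over the brightest probe sets of all 18193 genes, 15.4% were lower with siRNA #1 and 20.0% with siRNA #2, and 18.9% and 16.7% were higher. The host median was -0.52 with siRNA #1 and -0.70 with siRNA #2, against -0.05 and -0.04 for all genes. In 6 of 7 hosts, all but Snhg1, the 4 Ncl siRNA arrays lay below both control arrays, as they did on 24.0% of all probe sets. That share was not computed for the brightest probe sets alone. Both comparisons share the control arrays, so they are not independent of each other.

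**Figure D1:**
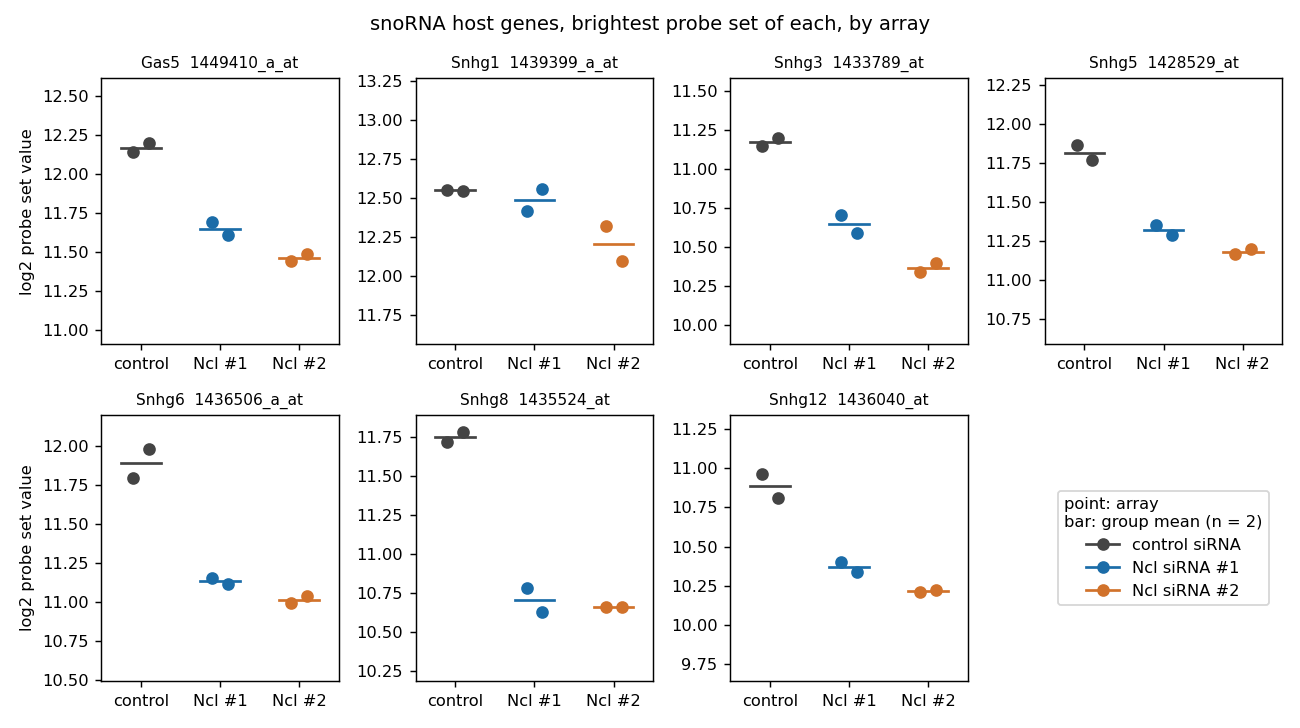
Log2 probe set value of the brightest probe set of each of the 7 snoRNA host genes, with 1 point per array and a bar at the mean of each group (n = 2); every panel spans the same range of log2 units. In 6 panels the Ncl siRNA arrays lie below both control arrays, and in the Snhg1 panel 1 array of siRNA #1 lies level with the controls.

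Snhg8, the host of the H/ACA snoRNA Snora24, read 11.72 and 11.78 on the control arrays, 10.78 and 10.62 under siRNA #1 and 10.66 and 10.66 under siRNA #2. The control arrays were the high ones, and the Ncl siRNA groups overlapped each other. With n = 2 per group, siRNA #1 gave a change of -1.04 (SE 0.07, limma adjusted p = 3.27e-09) and siRNA #2 one of -1.09 (SE 0.07, limma adjusted p = 1.54e-09). These are levels of 48.5% and 47.1% of control, the lowest among the hosts.

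Snhg6, the host of the C/D box snoRNA Snord87, read 11.79 and 11.98 on the control arrays, 11.15 and 11.12 under siRNA #1 and 10.99 and 11.04 under siRNA #2. Every Ncl siRNA array was below the controls, and the arrays of siRNA #2 were the lowest. Under siRNA #1 Snhg6 changed by -0.75 (SE 0.07, limma adjusted p = 1.61e-07), which is 59.4% of control. Under siRNA #2 it changed by -0.87 (SE 0.07, limma adjusted p = 2.14e-08), to 54.6%.

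Snhg3, which carries Snora73a and Snora73b, read 11.14 and 11.20 on the control arrays, 10.71 and 10.59 under siRNA #1 and 10.34 and 10.39 under siRNA #2. The groups did not overlap and stood in the order control, siRNA #1, siRNA #2. It fell by 0.52 (SE 0.07) to 69.5% of control with siRNA #1 and fell by 0.81 (SE 0.07) to 57.2% with siRNA #2, with limma adjusted p-values of 1.37e-05 and 7.84e-08.

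Snhg12, with 4 snoRNA genes in its span, read 10.96 and 10.81 on the control arrays, 10.40 and 10.34 under siRNA #1 and 10.21 and 10.22 under siRNA #2. The same order of non-overlapping groups was seen. The levels were 69.7% and 62.8% of control, from changes of -0.52 and -0.67 (SE 0.07 for both, limma adjusted p = 2.66e-05 and 1.25e-06).

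Snhg5 was called on its bright probe set alone. That probe set read 11.86 and 11.77 on the control arrays, 11.35 and 11.29 under siRNA #1 and 11.17 and 11.20 under siRNA #2, and changed by -0.49 to 71.0% of control and by -0.63 to 64.5% (SE 0.06 for both, limma adjusted p = 5.53e-06 and 2.53e-07). The other 2 probe sets, both designed from 1 sequence record, lay below the array median on all 6 arrays. Their changes were -0.31 and -0.29 with siRNA #1 and -0.06 and -0.11 with siRNA #2, with SE of 0.19 and 0.20, and did not pass.

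Gas5, named for its rise in cells that stop growing, fell on 3 of its 4 probe sets. The brightest, 1449410_a_at, read 12.14 and 12.20 on the control arrays, 11.69 and 11.61 under siRNA #1 and 11.44 and 11.49 under siRNA #2. All groups were separate on it, in the order seen for Snhg3. It fell by 0.52 (SE 0.06) to 69.9% of control with siRNA #1 and fell by 0.70 (SE 0.06) to 61.4% with siRNA #2. On 1419291_x_at the changes were -0.38 and -0.55 (SE 0.05 for both), and on 1424843_a_at they were -0.31 and -0.40 (SE 0.09 for both). The siRNA #1 call on 1424843_a_at was lost in 4 of 16 alternative settings, among them without either control array (adjusted p = 0.0685 without replicate 1 and 0.0723 without replicate 2). Its siRNA #2 call was lost without replicate 1 of siRNA #2 (adjusted p = 0.0618). The probe set 1436222_at read 9.13 and 9.07 on the control arrays, 9.004 and 9.22 under siRNA #1 and 9.09 and 9.14 under siRNA #2. There the arrays of all groups overlapped, and the changes of 0.01 (SE 0.09) with each siRNA did not pass.

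Snhg1 moved least among the hosts. Its brightest probe set, 1439399_a_at, read 12.55 and 12.55 on the control arrays, 12.42 and 12.56 under siRNA #1 and 12.32 and 12.10 under siRNA #2. With siRNA #1 the groups overlapped and the change of -0.06 (SE 0.07, limma adjusted p = 0.523) did not pass, as on the other 4 probe sets, whose changes were between -0.19 and 0.04. With siRNA #2 it fell by 0.34 (SE 0.07, limma adjusted p = 5.44e-04), to 78.8% of control, and 1433675_at fell by 0.29 (SE 0.07, limma adjusted p = 0.00284). Those calls were both lost with variances that do not follow the signal (adjusted p = 0.0758 and 0.112), and the second also without control replicate 2 (adjusted p = 0.106). The other 3 probe sets read -0.07, -0.13 and -0.23 with siRNA #2 and did not pass. The last of them, 1454703_x_at, passed as lower with siRNA #2 in some alternative settings. Among these were arrays centred on their median, only the arrays compared and array weights (limma adjusted p = 0.0465, 0.0429 and 0.0412). With siRNA #1 it passed with quantile normalization (limma adjusted p = 0.0335).

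The 2 probe sets that carry a host and its snoRNA moved downwards as well. The one annotated to Snhg8 and Snora24 read 13.17 and 13.18 on the control arrays and 12.39 to 12.42 in the Ncl siRNA arrays. Its changes were -0.77 and -0.76 (SE 0.04 for both), against -1.04 and -1.09 on the Snhg8 probe set. The one annotated to Gas5 and Snord47 read 10.94 and 11.00 on the control arrays and 10.43 to 10.61 in the others, with changes of -0.45 and -0.50 (SE 0.07 for both). All 4 of these changes passed, and none of these readings tells host from snoRNA.

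Over all 25 member probe sets, 12 were lower and 3 higher with siRNA #1, and 13 were lower and 4 higher with siRNA #2. Of all probe sets tested, 12.5% were lower and 14.6% higher with siRNA #1, and 15.5% lower and 13.0% higher with siRNA #2. All 4 Ncl siRNA arrays lay below both control arrays on 14 member probe sets and above them on 3, where the shares over all probe sets were 24.0% and 20.1%. Among the 16 host probe sets, 8 were lower with siRNA #1 and 10 with siRNA #2, and 0 were higher with either siRNA. The higher calls belong to Malat1 and Neat1.

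**Figure D2:**
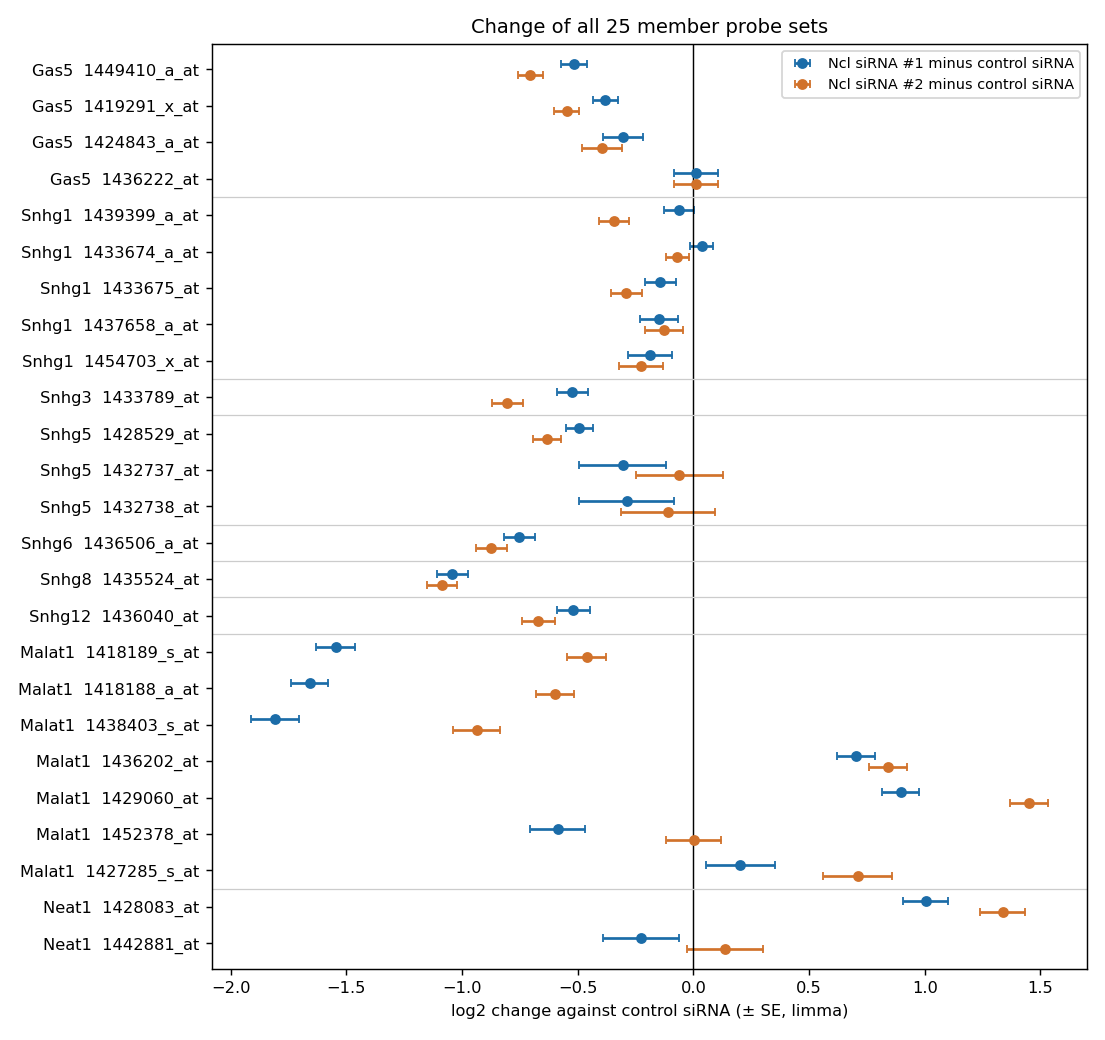
Log2 change against the control siRNA on the x axis (points, with SE from limma) for the 25 member probe sets, siRNA #1 in blue and siRNA #2 in orange, each from 2 arrays against 2. Host probe sets lie between -1.09 and 0.04, the Malat1 probe sets lie on both sides between -1.81 and 1.45, and Neat1 1428083_at lies at 1.00 and 1.34.

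Neat1 rose with both siRNAs on its brighter probe set. This probe set, 1428083_at, read 10.11 and 9.998 on the control arrays, 10.86 and 11.26 under siRNA #1 and 11.35 and 11.43 under siRNA #2. No Ncl siRNA array overlapped the controls, and the arrays of siRNA #1 lay further apart than those of the other groups. Neat1 rose 2.00-fold with siRNA #1 (log2 1.00, SE 0.10, limma adjusted p = 5.16e-07) and 2.52-fold with siRNA #2 (log2 1.34, SE 0.10, limma adjusted p = 1.33e-08). The dimmer 1442881_at read 7.34 and 7.38 on the control arrays, 6.83 and 7.43 under siRNA #1 and 7.59 and 7.40 under siRNA #2. Its changes of -0.23 and 0.14 (SE 0.16 for both) did not pass. Without replicate 2 of siRNA #1 the first became -0.53 and passed (adjusted p = 0.0092). Neat1 is made as a short and a long transcript from the same start, and which of them each probe set reads is not given in the files.

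Malat1 gave opposite directions on different probe sets. Among its 7 probe sets, 3 fell with both siRNAs, 2 rose with both, and 2 passed with 1 siRNA each. Of all probe sets, 12.5% were lower with siRNA #1 and 15.5% with siRNA #2, and 14.6% and 13.0% were higher. The share lower with both is thus at most 12.5%, and the share higher with both at most 13.0%. The 3 that fell were the brightest. The first, 1418189_s_at, read 13.40 and 13.19 on the control arrays, 11.75 and 11.74 under siRNA #1 and 12.66 and 13.00 under siRNA #2. The groups were separate, with the lowest values in the siRNA #1 arrays. Under siRNA #1 it changed by -1.55 (SE 0.08, limma adjusted p = 5.43e-10), to 34.2% of control, and under siRNA #2 by -0.46 (SE 0.08, limma adjusted p = 3.97e-04), to 72.6%. The siRNA #2 call was lost with variances that do not follow the signal (adjusted p = 0.0582).

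The second, 1418188_a_at, was designed from the same sequence record. It read 12.77 and 12.57 on the control arrays, 10.93 and 11.09 under siRNA #1 and 11.94 and 12.19 under siRNA #2, with changes of -1.66 and -0.60 (SE 0.08 for both). The third, 1438403_s_at, read 11.68 and 11.42, then 9.80 and 9.67, then 10.43 and 10.78 in the same order, with changes of -1.81 and -0.94 (SE 0.10 for both). On both of them siRNA #1 again gave the lower values and no groups overlapped.

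The 2 that rose lie lower in signal. On 1429060_at the control arrays read 9.16 and 9.13, those of siRNA #1 9.98 and 10.11 and those of siRNA #2 10.53 and 10.67. It rose 1.86-fold (log2 0.90, SE 0.08, limma adjusted p = 2.23e-07) and 2.73-fold (log2 1.45, SE 0.08, limma adjusted p = 5.00e-10), and the groups did not overlap. On 1436202_at the readings were 9.82 and 9.74 on the control arrays, 10.36 and 10.61 under siRNA #1 and 10.60 and 10.64 under siRNA #2. The rises there were 1.63-fold (log2 0.70, SE 0.08) and 1.79-fold (log2 0.84, SE 0.08), and the arrays of the Ncl siRNAs overlapped.

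The remaining pair of Malat1 probe sets was designed from 1 sequence record. On 1452378_at the change was -0.59 with siRNA #1 (SE 0.12, limma adjusted p = 0.00114) and 0.00 with siRNA #2 (SE 0.12, limma adjusted p = 0.998). On 1427285_s_at it was 0.20 with siRNA #1 (SE 0.15, limma adjusted p = 0.357) and 0.71 with siRNA #2 (SE 0.15, limma adjusted p = 0.0013). So of this pair 1 passed as lower with siRNA #1 and the other as higher with siRNA #2, and no change of total Malat1 can be given from these arrays. Where each probe set lies along the transcript is not given in the files.

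The difference between the brightest falling and the brighter rising probe set (1418189_s_at minus 1436202_at) was taken within each array. It was 3.58 and 3.44 on the control arrays, 1.39 and 1.13 under siRNA #1 and 2.06 and 2.37 under siRNA #2. The pair was chosen for its opposite changes, so these values describe the size of the gap and add no support to the calls. Against the other rising probe set, 1429060_at, the difference was 4.24 and 4.05, then 1.77 and 1.63, then 2.13 and 2.34.

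**Figure D3:**
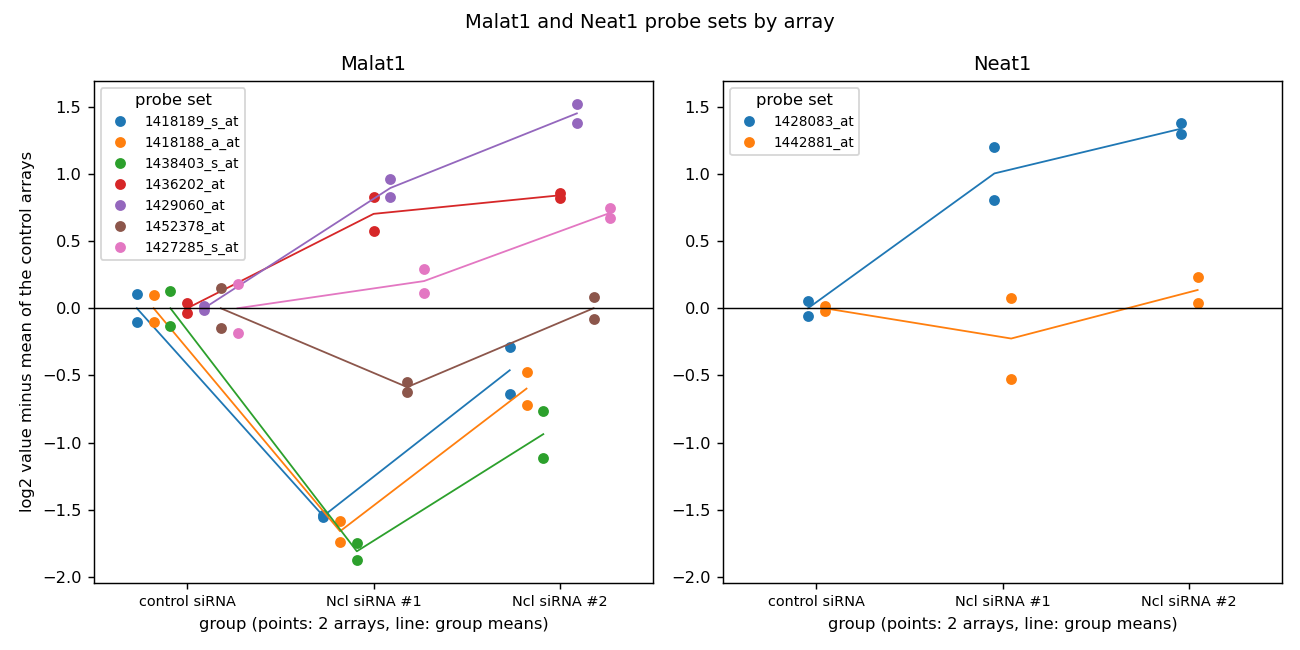
Log2 value of each array minus the mean of the 2 control arrays for the 7 Malat1 probe sets (left) and the 2 Neat1 probe sets (right), with 1 point per array and lines through the group means. With siRNA #1 the Malat1 group means lie between -1.81 and 0.90, and every line runs upwards from siRNA #1 to siRNA #2.

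Both Ncl siRNAs were then compared directly, which asks whether reagents against the same mRNA gave the same levels. The control arrays enter its SE and p-values through the shared fit. Of the 25 member probe sets 7 differed, 5 higher and 2 lower with siRNA #2, where 2.91% of all probe sets differed (0.959% higher and 1.95% lower). All 5 higher ones belong to Malat1. On 1418189_s_at siRNA #2 was above siRNA #1 by 1.09 (SE 0.08, limma adjusted p = 1.34e-06) and on 1418188_a_at by 1.06 (SE 0.08, limma adjusted p = 9.96e-07). On 1438403_s_at the difference was 0.87 (SE 0.10), on 1452378_at 0.59 (SE 0.12) and on 1429060_at 0.56 (SE 0.08). The difference was above 0 on 7 of 7 Malat1 probe sets, also on 1427285_s_at (0.51, 95% confidence interval 0.19 to 0.82, adjusted p = 0.0797) and 1436202_at (0.14, interval -0.04 to 0.31, adjusted p = 0.42), which did not pass. The median difference over all probe sets was -0.007, and the share of them above 0 was not computed. On the brightest probe set of each gene, siRNA #2 gave the lower mean in 55.5% of all genes. The 7 Malat1 probe sets read 1 gene on the same arrays. Of these, 1418189_s_at shares a sequence record with 1418188_a_at, as 1452378_at does with 1427285_s_at. Their directions are therefore not independent of each other. With variances that do not follow the signal only 1418188_a_at kept its call (adjusted p = 0.0445). The call of 1429060_at was lost without replicate 2 of siRNA #2 (adjusted p = 0.0612) and that of 1452378_at without either array of siRNA #2 (adjusted p = 0.0846 without replicate 1 and 0.27 without replicate 2).

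The 2 lower ones were Snhg3 (-0.28, SE 0.07, limma adjusted p = 0.033) and Snhg1 on 1439399_a_at (-0.28, SE 0.07, limma adjusted p = 0.028). The Snhg3 call was lost in 9 of 17 alternative settings and the Snhg1 call in 5 of 17. Among the settings that ended the Snhg3 call was leaving out either control array, any array of siRNA #2, or replicate 1 of siRNA #1, with adjusted p-values from 0.0601 to 0.393. The Snhg1 call was lost without replicate 2 of siRNA #1 (adjusted p = 0.075) or replicate 2 of siRNA #2 (adjusted p = 0.466). Over the brightest probe sets of all genes, 3.11% passed as lower and 1.45% as higher. These shares include dim probe sets, while the brightest probe set of each host lies at a signal percentile of 92.0 or more. Among the 22519 probe sets above the median signal, fitted alone, 1549 were lower, against 877 of all 45037. On the brightest probe set siRNA #2 gave the lower mean in 7 of 7 hosts, with differences from -0.28 to -0.04, as it did in 55.5% of all genes. For 5 hosts the difference did not pass, with 95% confidence intervals that reached from -0.30 to -0.07 for Gas5, -0.26 to -0.01 for Snhg5, -0.26 to 0.02 for Snhg6, -0.18 to 0.10 for Snhg8 and -0.30 to 0.00 for Snhg12. Neat1 1428083_at was 0.33 above siRNA #1 (interval 0.13 to 0.54, adjusted p = 0.078), and passed in 5 of 17 alternative settings, among them without replicate 2 of siRNA #1 (0.53, adjusted p = 0.00166).

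**Figure D4:**
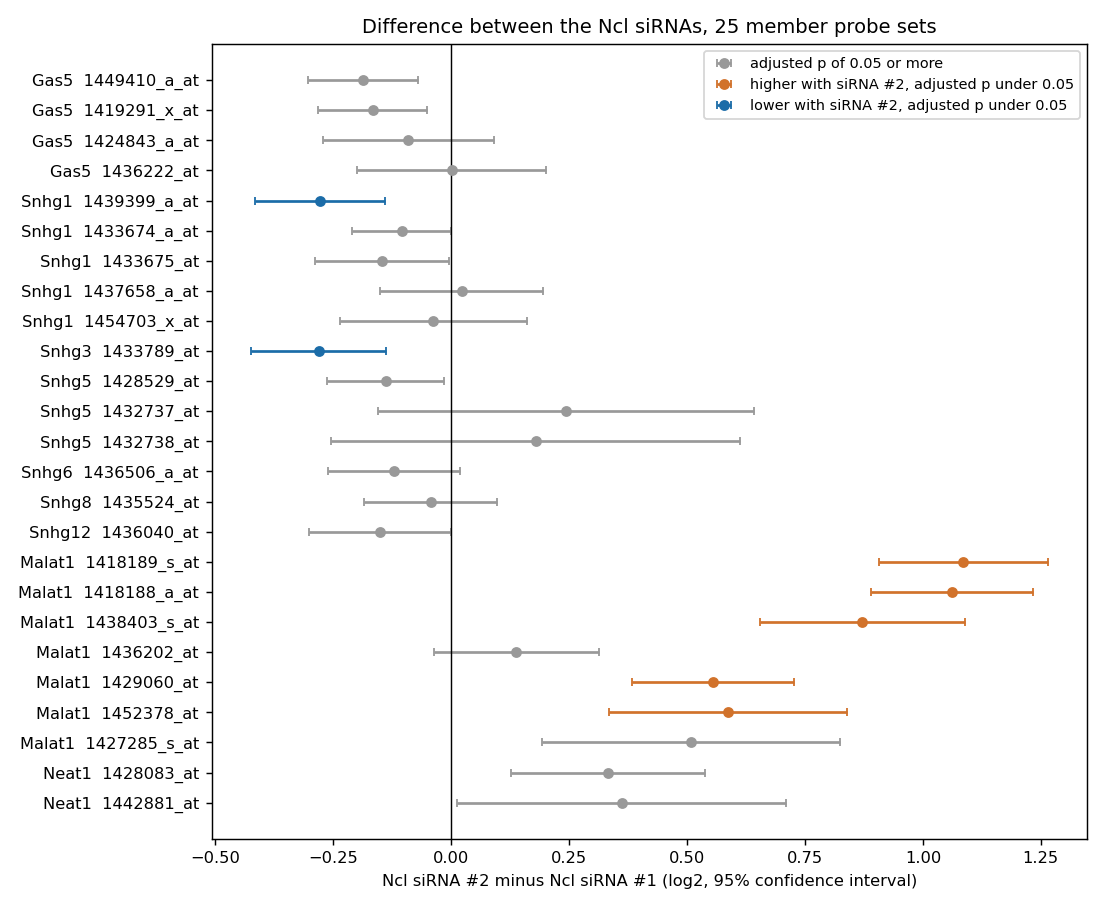
Difference of siRNA #2 minus siRNA #1 in log2 units on the x axis, with 95% confidence intervals, for the 25 member probe sets (2 arrays against 2). The 5 probe sets in orange, all of Malat1, lie between 0.56 and 1.09, and the 2 in blue, of Snhg1 and Snhg3, at -0.28.

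Related genes were followed in lists written from general knowledge, with 1 probe set per gene, the brightest. The shares called over all genes, beside which these counts stand, were 15.4% lower and 18.9% higher with siRNA #1, and 20.0% lower and 16.7% higher with siRNA #2. Of 12 other noncoding snoRNA hosts measured, 6 were lower and 1 higher with siRNA #1, and 7 lower and 0 higher with siRNA #2, with medians of -0.40 and -0.41. The 12 include Snrpn, which encodes a protein, so the name of this list does not hold for it. Snrpn changed by -0.31 and -0.33 (SE 0.15 for both) and did not pass. Zfas1, another 5′ terminal oligopyrimidine transcript, read 11.02 and 10.98 on the control arrays, 10.39 and 10.36 under siRNA #1 and 10.15 and 10.14 under siRNA #2. Zfas1 fell by 0.62 and fell by 0.86 (SE 0.07 for both), and no groups overlapped. Snhg4 changed by -0.76 and -0.71 (SE 0.07 for both), Dancr by -0.46 and -0.68 (SE 0.08 for both) and Snhg7 by -0.49 and -0.58 (SE 0.10 for both), and all of these passed. Rian, an imprinted host of many C/D box snoRNAs, was the 1 that was higher with siRNA #1 (0.20, SE 0.06, adjusted p = 0.0141). Snhg11 (0.14) and Snhg14 (0.23) read above control with siRNA #1 and did not pass.

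Of 10 other long noncoding RNAs measured, 3 were lower and 0 higher with siRNA #1 and 3 lower and 1 higher with siRNA #2, with medians of -0.06 and -0.10. Tsix, the antisense partner of Xist, changed by -0.90 and -1.16 (SE 0.20 for both), and Mirg by -0.30 and -0.41 (SE 0.10 for both). Both of these passed with each siRNA.

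Of 32 protein-coding snoRNA hosts measured, 8 were lower and 6 higher with siRNA #1 and 12 lower and 6 higher with siRNA #2. The higher counts are near the shares over all genes, and the medians, -0.04 and -0.07, lay near those of all genes (-0.05 and -0.04). The ribosomal protein genes Rpl37 and Rpl27a changed by -0.85 and -0.73 (SE 0.11) and by -0.79 and -0.55 (SE 0.10). Eif4a2, a translation initiation helicase, rose by 0.49 with each siRNA (SE 0.04). Ncl, the target itself, is in this list too, with -0.46 and -0.46.

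Among 20 measured proteins that bind or assemble snoRNA particles, 6 were lower and 4 higher with siRNA #1 and 11 lower and 2 higher with siRNA #2, with medians of -0.08 and -0.15. Nop10, a core protein of H/ACA particles, read 13.74 and 13.72 on the control arrays, 13.10 and 13.04 under siRNA #1 and 12.92 and 12.94 under siRNA #2. It fell by 0.66 and fell by 0.80 (SE 0.04 for both), with no overlap of groups. Znhit3, an assembly factor of C/D particles, changed by -0.56 and -0.60 (SE 0.07), Nolc1, a chaperone of the particles, by -0.34 and -0.41 (SE 0.05) and Nop56, a core C/D protein and a snoRNA host, by -0.29 and -0.34 (SE 0.05). All of these passed.

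**Figure D5:**
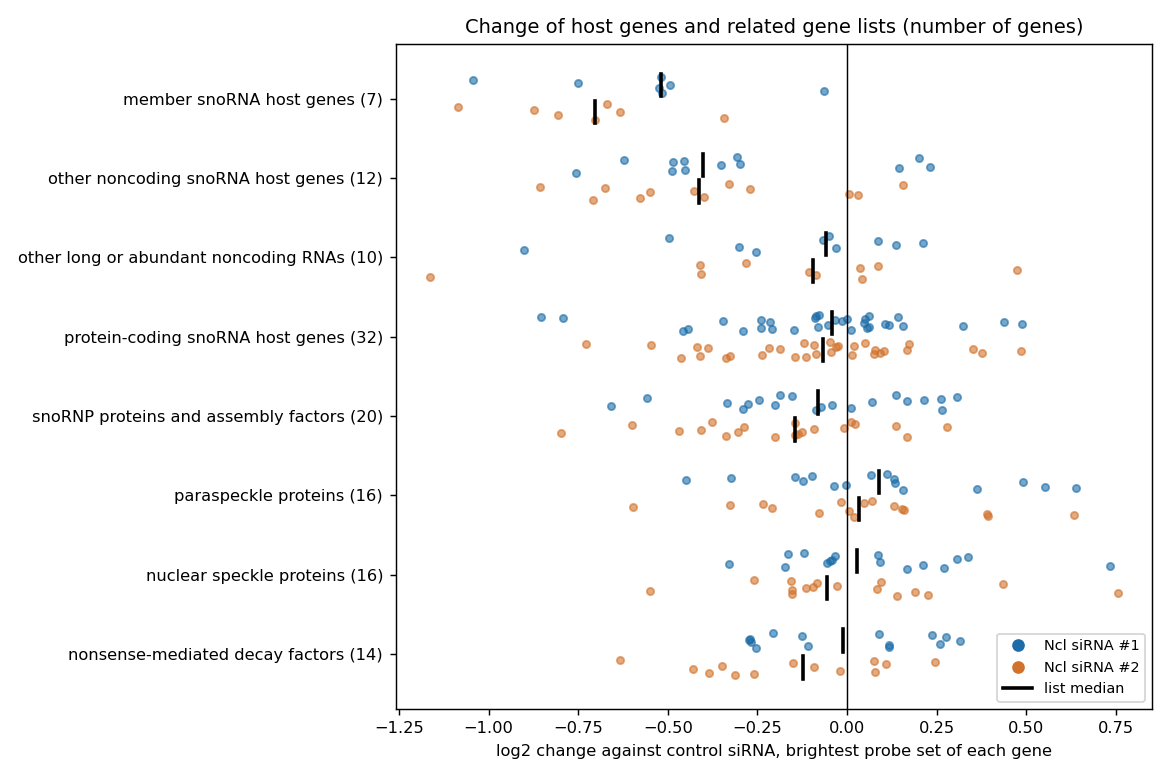
Log2 change against the control siRNA on the x axis for the brightest probe set of each gene in the member hosts and in 7 related lists (number of genes in brackets), siRNA #1 in blue and siRNA #2 in orange, with a black bar at each list's median. The medians of the member hosts, -0.52 and -0.70, and of the other noncoding hosts, -0.40 and -0.41, lie to the left. Those of the other lists lie between -0.15 and 0.09. The list of other noncoding hosts also holds the protein-coding gene Snrpn.

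For proteins of the bodies that Neat1 and Malat1 occupy, the shares over all genes were again 15.4% lower and 18.9% higher with siRNA #1, and 20.0% and 16.7% with siRNA #2. Of 16 paraspeckle proteins 5 were higher and 3 lower with siRNA #1, and 4 higher and 4 lower with siRNA #2. Pspc1, Sfpq and Rbm14, RNA-binding proteins of the paraspeckle, rose by 0.64 and 0.63 (SE 0.06), by 0.36 and 0.39 (SE 0.05) and by 0.55 and 0.39 (SE 0.05), while Fam98a changed by -0.45 and -0.60 (SE 0.07). Of 16 nuclear speckle proteins 6 were higher and 2 lower with siRNA #1, and 5 higher and 3 lower with siRNA #2. Srsf5, a splicing factor, rose by 0.73 and 0.76 (SE 0.05), and Srrm2, a scaffold of speckles, changed by -0.33 and -0.55 (SE 0.06). Dyrk3, a kinase that dissolves such bodies, rose by 0.34 and 0.44 (SE 0.08).

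Factors of nonsense-mediated decay, the pathway that degrades several host transcripts, had medians of -0.01 and -0.12. Of 14 measured, 1 was lower and 2 were higher with siRNA #1, and 7 were lower and 2 higher with siRNA #2. All of these but the 7 lower are at or below the shares over all genes. Rbm8a, a protein of the exon junction complex, changed by -0.27 and -0.35 (SE 0.05), and Gspt1, a translation release factor, by 0.24 and 0.24 (SE 0.05).

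To show which other genes had patterns like the members, profiles over the 6 arrays were centred on their own means and compared by Euclidean distance. Nearest to Neat1 1428083_at, the brightest probe set with the largest mean change, was Slc24a1 (distance 0.22), followed by Unc5b (0.24), Vim (0.26), Id2 (0.26) and Rras2 (0.28). Nearest to Malat1 1418189_s_at, which differed most between the siRNAs, was Lgals3 at a larger distance of 0.49, with changes of -1.52 and -0.15, followed by Zmynd10 (0.69), Hsd11b1 (0.73), Mt1 (0.76) and Thbd (0.77). In siRNA #2 minus siRNA #1, Lgals3 and Mt1 passed. Zmynd10, Hsd11b1 and Thbd did not (limma adjusted p = 0.102, 0.140 and 0.155). Zmynd10 lay below the array median on all 6 arrays, Thbd on 4 and Hsd11b1 on 2.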

How the data were processed

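Total RNA was extracted with a Qiagen RNAeasy kit and labelled with an Affymetrix IVT kit, per the labels. The authors deposited log2 probe set values. Whether the arrays were scaled to each other, and how background and summarisation were done, is not given in the sources used here. Array medians were 5.73 to 5.79, and no scaling was added. The number of arrays limits the precision.

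All 6 arrays entered 1 linear model with the 3 groups as terms, over 45037 probe sets (64 control probe sets left out) in limma 3.58.1 under R 4.3.3, with variances that follow the signal, 3 residual and 13 prior degrees of freedom, and Benjamini-Hochberg adjustment. Of all probe sets 34958 carried 1 symbol, 932 several and 9211 none. On simulated data for the mean of both siRNAs against control (45037 probe sets), 6 of 67 changes of 0.5, 44 of 67 of 1 and 61 of 66 of 2 log2 units were found, with 1 false call. Only these probe sets were changed there, whereas 6865 were called higher and 7317 lower in the real comparison. The adjustment is stricter where few probe sets change, so the shares found do not carry over to the real arrays.

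Named were all members, Ncl, up to 4 genes per list with the largest mean change among those that both siRNAs moved the same way past the threshold, up to 3 of the brightest markers, and the 5 nearest profiles for each of 2 members. Rian, Snhg11 and Snhg14 were named after their values were seen. The members and lists were chosen with earlier results of these data known. Lists are described by counts and medians, without a set test. Alternatives were tried 1 at a time and their effect is given under the closing heading. Promoters were matched by symbol to RefSeq (GRCm38.p6), and the files name no genome build.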

Additional observations from a re-analysis of the deposited data

Results flagged for a closer look

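Of the 25 member probe sets, 7 differed in the direct comparison of siRNA #2 with siRNA #1, a test of the difference itself. Over all 45037 probe sets 2.91% differed. The Ncl probe sets did not pass in this comparison (0 of 5), with differences from -0.15 to 0.15. With so small a share passing over all probe sets, this count does not show that Ncl levels were equal. The arrays of siRNA #1 and siRNA #2 did not overlap on some Ncl probe sets and overlapped on others. What the differences of the members come from was not tested. For Malat1 the differences were 1.09 on 1418189_s_at, 1.06 on 1418188_a_at, 0.87 on 1438403_s_at, 0.59 on 1452378_at and 0.56 on 1429060_at. For Snhg1 on 1439399_a_at it was -0.28, and for Snhg3 on 1433789_at it was -0.28. All were tested with limma over 45037 probe sets. The Snhg3 and Snhg1 calls were lost in 9 and 5 of 17 alternatives. Groups of 2 arrays were too small to look for a single outlying array.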

How the results depend on the processing

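With n = 2 per group, the calls of the brightest probe sets of Gas5, Snhg3, Snhg5, Snhg6, Snhg8 and Snhg12, and of Neat1 1428083_at, against control were kept in 17 of 17 alternatives with each siRNA. The direct comparison of the siRNAs was less steady. Its 2 lower member probe sets became 0 with quantile normalization, with variances without a trend and at an adjusted p under 0.01, and 1 with only the arrays compared. Its 5 higher ones became 3 without _x_at and _s_at probe sets, 2 with 1 probe set per gene and 1 without a trend. Over the whole table its 877 lower probe sets became 541 with quantile normalization, 1549 among probe sets above the median signal, 31 without a trend and 299 at 0.01, and its 432 higher ones became 76 without a trend and 263 at 0.01. At 0.01 the 5622 lower ones of siRNA #1 became 3559. With 1 probe set per gene, members counted 1 higher and 7 lower with siRNA #1, 1 and 8 with siRNA #2, and 1 and 8 for their mean, and over all genes there were 3668 and 3143, 3227 and 3952, and 3701 and 3945, since fewer features were tested. Leaving out 1 array gave 3 to 8 higher and 0 to 3 lower members in the direct comparison, and 151 to 1944 and 116 to 4080 probe sets of the whole table. With the probe sets of each gene averaged, counts became 0 higher for other noncoding hosts (siRNA #1), 2 and 2 higher for other long noncoding RNAs, 2 and 2 higher for protein-coding hosts, 1 lower for paraspeckle proteins (siRNA #1), 3 higher and 4 lower, then 3 and 5, for nuclear speckle proteins, and 3 lower (siRNA #1) and 1 higher (siRNA #2) for decay factors. Where no construction is named, the cause was not tested. Same-numbered arrays showed no shared deviation (correlations 0.0158, 0.000742 and 0.0174). This cannot tell whether the numbers mark paired cultures or batches, which the labels do not say. With the replicate number as a block, members counted 3 higher and 12 lower with siRNA #1, 4 and 13 with siRNA #2, 4 and 14 for the mean, and 6 and 2 in the direct comparison, where Neat1 1428083_at passed (adjusted p = 0.0464).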
